A study of Mus musculus with 15 samples.

Results

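The GABAergic lineage genes described here are 9 genes of the 34910 in the annotated count table, taken by name: Gad1, Gad2, Dlx1, Dlx2, Dlx5, Dlx6, Sp8, Sp9 and Slc32a1. The estimated counts of all annotated transcripts of each gene were summed in each of 15 libraries of mouse neural progenitor cells of wild type genotype, dividing precursors of neurons and glia kept with FGF2, EGF and heparin. Every group, shControl included, received plasmids carrying EGFP and an shRNA (a hairpin-shaped RNA that targets transcripts matching it), and cells positive for GFP were sorted 3 days later. The 5 groups of 3 libraries are shControl, shLINE_Orf1, shLINE_Orf2, shLINE_MdV_I and shLINE_Orf1+LINE-1, in which a full-length LINE-1 was given together with the shLINE_Orf1 hairpin. LINE-1 elements are retrotransposons, and the design text divides the hairpins by whether they are directed at young or old LINE-1. The hairpin given with the added LINE-1 is the one against young elements, and the labels do not state which kind shLINE_Orf2 and shLINE_MdV_I target. The sources used here do not give the strain, age or brain region of the cells. LINE-1 RNA and EGFP were not analysed here, and how far each hairpin lowered its target is therefore not shown.

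GABA is the main inhibitory transmitter of the forebrain. Glutamate decarboxylases make it, and a vesicular transporter loads it for release. GABAergic neurons of the forebrain arise mostly from ventral progenitors, in which transcription factors of the Dlx family act with Gsx factors, and a lateral and dorsal part of that territory uses Sp8 and Sp9 and supplies neurons of the olfactory bulb. Gad1 and Gad2 encode the decarboxylases. Slc32a1 encodes the vesicular transporter. Dlx1, Dlx2, Dlx5 and Dlx6 encode homeobox factors that lie in the genome as pairs of neighbours, and Sp8 and Sp9 encode related zinc finger factors.

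The genes lie on 3 chromosomes of the build GRCm38. Dlx1 (chromosome 2, 71528113 to 71533981, plus strand) and Dlx2 (71543408 to 71546754, minus strand) are separated by 9.4 kb. Gad1 (70553072 to 70602014, plus strand) ends 926.1 kb before Dlx1, and Sp9 (73271925 to 73284706, plus strand) starts 1725.2 kb after Dlx2. Gad2 (22622205 to 22693874, plus strand) and Slc32a1 (158610767 to 158615748, plus strand) are farther off on the same chromosome. Dlx6 (chromosome 6, 6863334 to 6868568, plus strand) and Dlx5 (6877805 to 6882085, minus strand) are 9.2 kb apart, and Sp8 is on chromosome 12 (118846329 to 118852576, plus strand). Strand is not stated for these libraries, so reads of antisense transcripts at Dlx1 and Dlx6 cannot be told apart from reads of these genes. The antisense genes Dlx1as, Dlx6os1 and Dlx6os2 were not analysed here.

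The libraries held 39204327 to 51070601 gene counts. Levels are given as CPM, counts scaled to a fixed library size, and levels of different genes are compared as TPM, which also divide by exonic length. Over the 15141 genes tested, shLINE_Orf1 replicate 1 and shControl replicate 2 stood apart. Their median Spearman correlations with the other libraries were 0.974 and 0.989, against 0.991 to 0.994 for the other 13. Of those 13, shControl replicate 1 was at 0.991 and each of the rest at 0.994, so the cut between shControl replicates 1 and 2 is narrow. Replicates of every group differed by more than counting noise, since chi-square over its degrees of freedom was 7.11 to 245 in the 15 pairs. Nothing in the labels says that replicates came from separate cultures, so p-values measure only the spread among these samples, and that spread may be technical. Markers of neural progenitors were present: Fabp7, Vim and Sox2 stood at 7847, 1402 and 158 TPM, and all 13 progenitor genes passed the filter on low counts. Defining markers of other lineages varied. Olig1 and Olig2 of the oligodendrocyte lineage were at 1732 and 550 TPM, and the microglial Aif1 was at 0 in every library. The immature neuron gene Dcx was at 1.11 TPM, while the 11 pan-neuronal genes summed to 192 to 375 TPM in shControl. The 8 astrocyte genes summed to 1066 to 1231 TPM in shControl.

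Only 2 of the 9 genes were at 1 CPM or more on average, Sp8 and Gad1. Per length, Sp8 was at 5.29 and Gad1 at 4.996 TPM (means of 15 libraries), followed by Dlx2 at 0.557, Dlx1 at 0.368, Gad2 at 0.148, Sp9 at 0.0897, Dlx6 at 0.0573 and Dlx5 at 0.0160 TPM. Sp8 ranged from 1.84 to 7.27 TPM and Gad1 from 2.99 to 7.70 TPM over the libraries, so the order of these neighbours does not exceed their spread. The ranges of Dlx2 (0.180 to 0.832 TPM) and Dlx1 (0.0510 to 0.749 TPM) overlap as well, as do those of Gad2 (0.0277 to 0.455 TPM) and Sp9 (0.0141 to 0.177 TPM). These ranges pool the libraries. Within every library Dlx2 had at least as many counts as Dlx1, before division by length, and levels per length were not compared within libraries. The 2 decarboxylase genes were far apart, with a Gad1 level 33.7 times that of Gad2. The transporter that GABAergic neurons need for vesicular release, Slc32a1, had no counts in any library. A count of 0 allows up to 3 counts, or 0.0581 to 0.0760 CPM depending on the library, and such floors cover counting error only.

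The filter on low counts was passed by 6 of the 9 genes, Gad1, Gad2, Dlx1, Dlx2, Sp8 and Sp9, and Dlx5, Dlx6 and Slc32a1 did not enter the main test. A test over the 5 groups called none of the 6 (edgeR's quasi-likelihood F test with Benjamini-Hochberg adjustment over all genes). The same test called 143 of all 15141 genes, or 0.944%, and 1815 genes (12%) had an unadjusted p under 0.05. Among the 6, Gad1 alone was under 0.05 before adjustment, and its edgeR adjusted p was 0.119. The adjusted p was 0.543 for Sp8, 0.566 for Sp9, 0.625 for Gad2, 0.676 for Dlx2 and 0.965 for Dlx1. Over the 10 pairs of groups, 0 of 60 tests of these genes were called, 9 had an unadjusted p under 0.05, and groups did not overlap in 12. Over the same 10 pairs, 9.28% to 27.2% of all genes did not overlap, so 12 of 60 lies within the background. The 9 belong to Gad1 (5), Sp8 (2), Gad2 (1) and Sp9 (1). Of all genes, those with an unadjusted p under 0.05 against shControl were 10.5% for shLINE_Orf1, 7.01% for shLINE_Orf2, 8.63% for shLINE_MdV_I and 8.76% for shLINE_Orf1+LINE-1. Between the other pairs they were 11.1% (shLINE_Orf1+LINE-1 and shLINE_Orf1), 11.4% (shLINE_Orf2 and shLINE_Orf1), 16.4% (shLINE_MdV_I and shLINE_Orf1), 5.46% (shLINE_MdV_I and shLINE_Orf2), 9% (shLINE_Orf1+LINE-1 and shLINE_Orf2) and 8.51% (shLINE_Orf1+LINE-1 and shLINE_MdV_I).

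**Figure D1:**
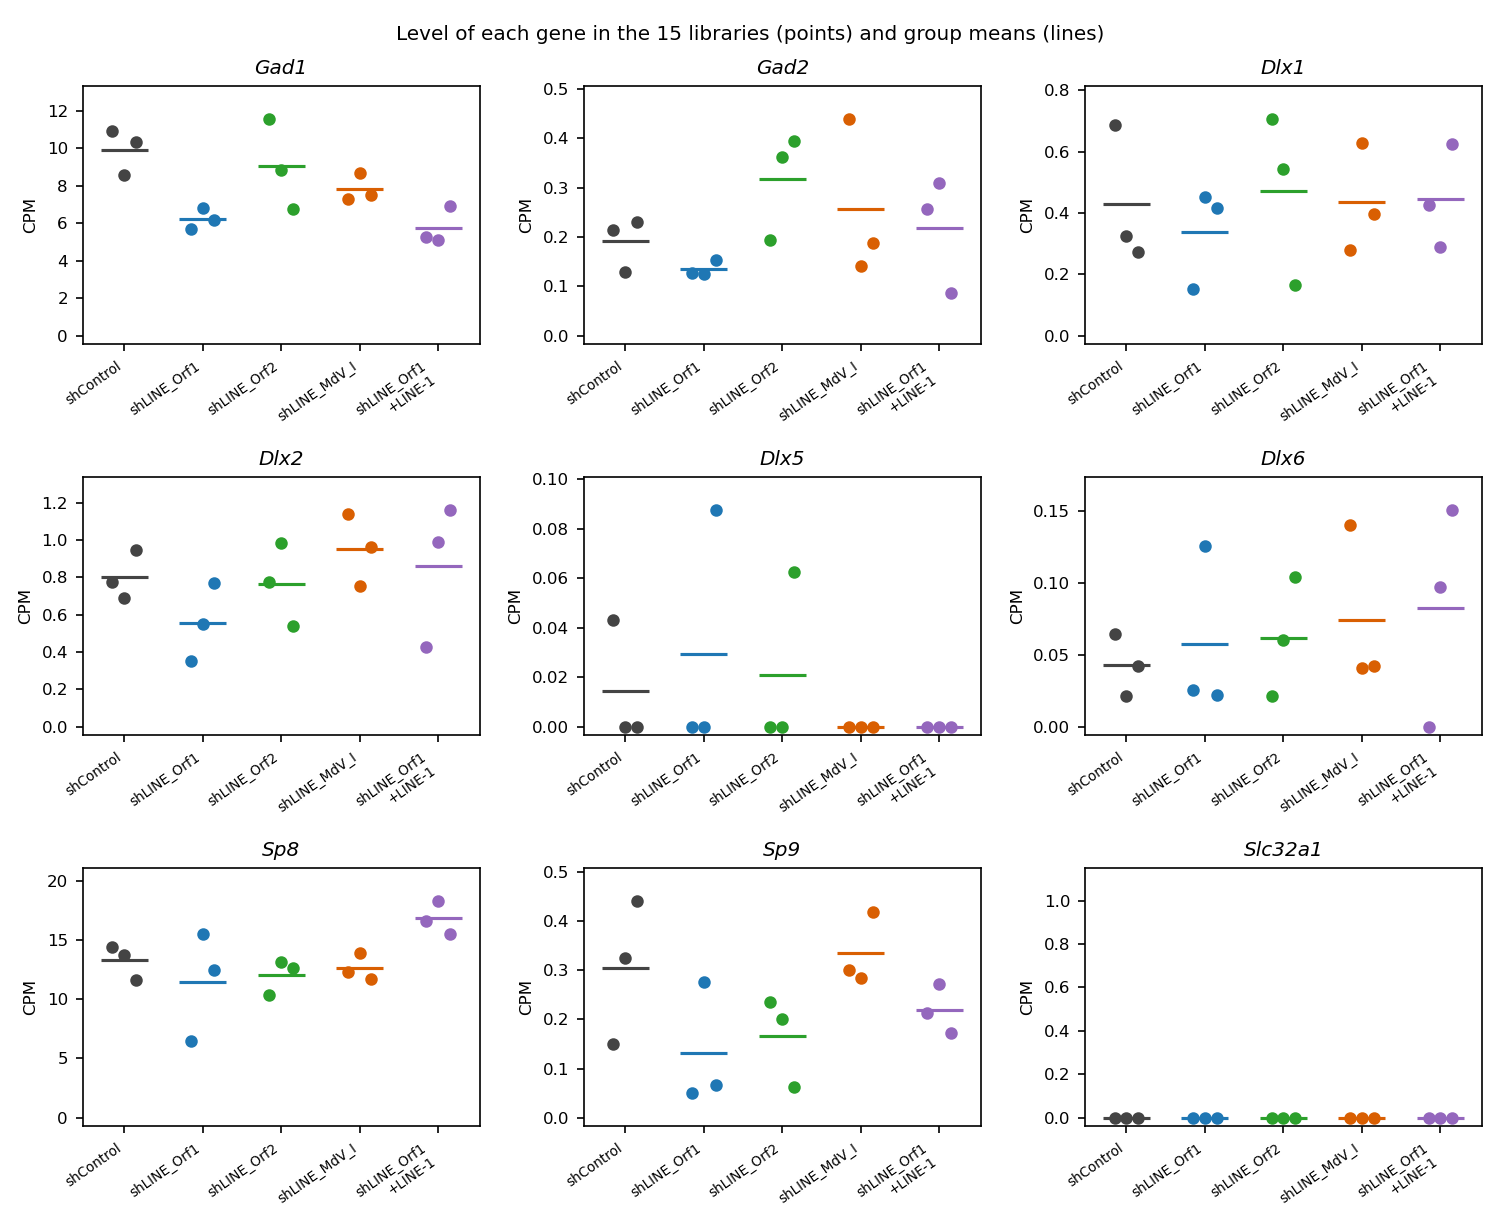
Level of each of the 9 genes in CPM (vertical axis, from 0) in the 15 libraries (points) of the 5 groups, with group means (lines). Gad1 lies at 5.09 to 6.91 CPM in the 6 libraries with the Orf1 hairpin and at 6.77 to 11.6 CPM in the other 9, Sp8 is highest in the 3 libraries with added LINE-1, and Slc32a1 is at 0 throughout.

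Gad1, the decarboxylase gene that supplies most GABA of the cell body and is also active in immature cells, was lower in both groups that carry the Orf1 hairpin than in shControl, though not past the adjusted threshold. It stood at 10.9, 8.56 and 10.3 CPM in shControl replicates 1, 2 and 3, from 507, 396 and 491 counts. It was at 5.70, 6.82 and 6.16 CPM in shLINE_Orf1, from 225, 272 and 281 counts, and at 5.28, 5.09 and 6.91 CPM in shLINE_Orf1+LINE-1, from 247, 263 and 321 counts. All 6 libraries with the Orf1 hairpin lay below every shControl library and below every shLINE_MdV_I library. The shLINE_Orf2 libraries held 11.6, 8.81 and 6.77 CPM and the shLINE_MdV_I libraries 7.27, 8.65 and 7.51 CPM. The range of shLINE_Orf2 spans that of shControl, and its replicate 3 is the only library without the Orf1 hairpin that lies below the highest with it. In bulk RNA such as this, fewer cells that express a gene and less RNA per cell cannot be told apart.

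The group means of Gad1 were 9.92 ± 1.22 CPM in shControl, 6.23 ± 0.561 in shLINE_Orf1, 9.05 ± 2.41 in shLINE_Orf2, 7.81 ± 0.735 in shLINE_MdV_I and 5.76 ± 1.002 in shLINE_Orf1+LINE-1 (SD, n = 3 each). For shLINE_Orf1 minus shControl the log2 fold change was -0.67 ± 0.19 (SE; 95% interval -1.07 to -0.28), with an edgeR adjusted p of 0.211 (quasi-likelihood, Benjamini-Hochberg). That comparison called 27 genes (0.178%), and Gad1 was 1 of 6 tested genes of the set without overlap between the groups, against 9.28% of all genes. For shLINE_Orf1+LINE-1 minus shControl the log2 fold change was -0.79 ± 0.19 (-1.18 to -0.39, edgeR adjusted p = 0.118), where 0.139% of all genes were called. Here the groups did not overlap for Gad1 and Sp8, or 2 of 6, against 16.8% of all genes. Both comparisons use the same 3 shControl libraries.

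With LINE-1 added to the Orf1 hairpin, Gad1 differed from the hairpin alone by a log2 fold change of -0.11 ± 0.19 (-0.51 to 0.29, edgeR adjusted p = 0.771) and overlapping libraries. The difference turned to 0.51 with coding transcripts only (edgeR adjusted p = 0.503). That comparison called 0 genes of all (0.00%), while 1680 had an unadjusted p under 0.05. Against shControl, shLINE_Orf2 gave -0.13 ± 0.18 (-0.52 to 0.26, edgeR adjusted p = 0.995), where 0.192% of genes were called and 12% did not overlap. In shLINE_MdV_I the difference was -0.35 ± 0.18 (-0.74 to 0.05, edgeR adjusted p = 0.666), where 0.594% were called and 14.9% did not overlap. Between the hairpins, shLINE_Orf2 minus shLINE_Orf1 was 0.54 ± 0.19 (edgeR adjusted p = 0.407) and shLINE_MdV_I minus shLINE_Orf1 0.33 ± 0.19 (edgeR adjusted p = 0.369). Against shLINE_Orf2 and shLINE_MdV_I the added LINE-1 gave -0.65 ± 0.19 and -0.44 ± 0.19 (edgeR adjusted p = 0.199 and 0.496), so no difference of Gad1 between hairpins was called. The shLINE_Orf1 and shLINE_MdV_I groups did not overlap for Gad1, nor for 19.2% of all genes.

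Whether Gad1 was called depended on the tool and on the libraries in the fit. By edgeR it was called neither with all transcripts nor with coding transcripts only. The coding count leaves out a noncoding transcript that shares most of its bases with the full-length coding one. Its values therefore also reflect the estimated split of reads between these transcripts. With coding transcripts only, the edgeR adjusted p of the test over the 5 groups was 0.552, and those against shControl were 0.388 for shLINE_Orf1 and 0.770 for shLINE_Orf1+LINE-1. DESeq2 called Gad1 in shLINE_Orf1 (adjusted p = 0.0401) and in shLINE_Orf1+LINE-1 (adjusted p = 0.00635) against shControl, and so did limma-voom with quality weights (adjusted p = 0.0266 and 0.00569). With only the 2 compared groups in the edgeR fit the adjusted p was 0.938 for shLINE_Orf1. For shLINE_Orf1+LINE-1, edgeR called the difference when shLINE_Orf1 replicate 1 was left out (adjusted p = 0.0489), and also with neither of the libraries that stand apart (adjusted p = 0.0221, log2 fold change -0.88). The log2 fold change stayed below 0 for both groups in every alternative run, between -1.03 and -0.60 for shLINE_Orf1 and between -0.93 and -0.52 for shLINE_Orf1+LINE-1.

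**Figure D2:**
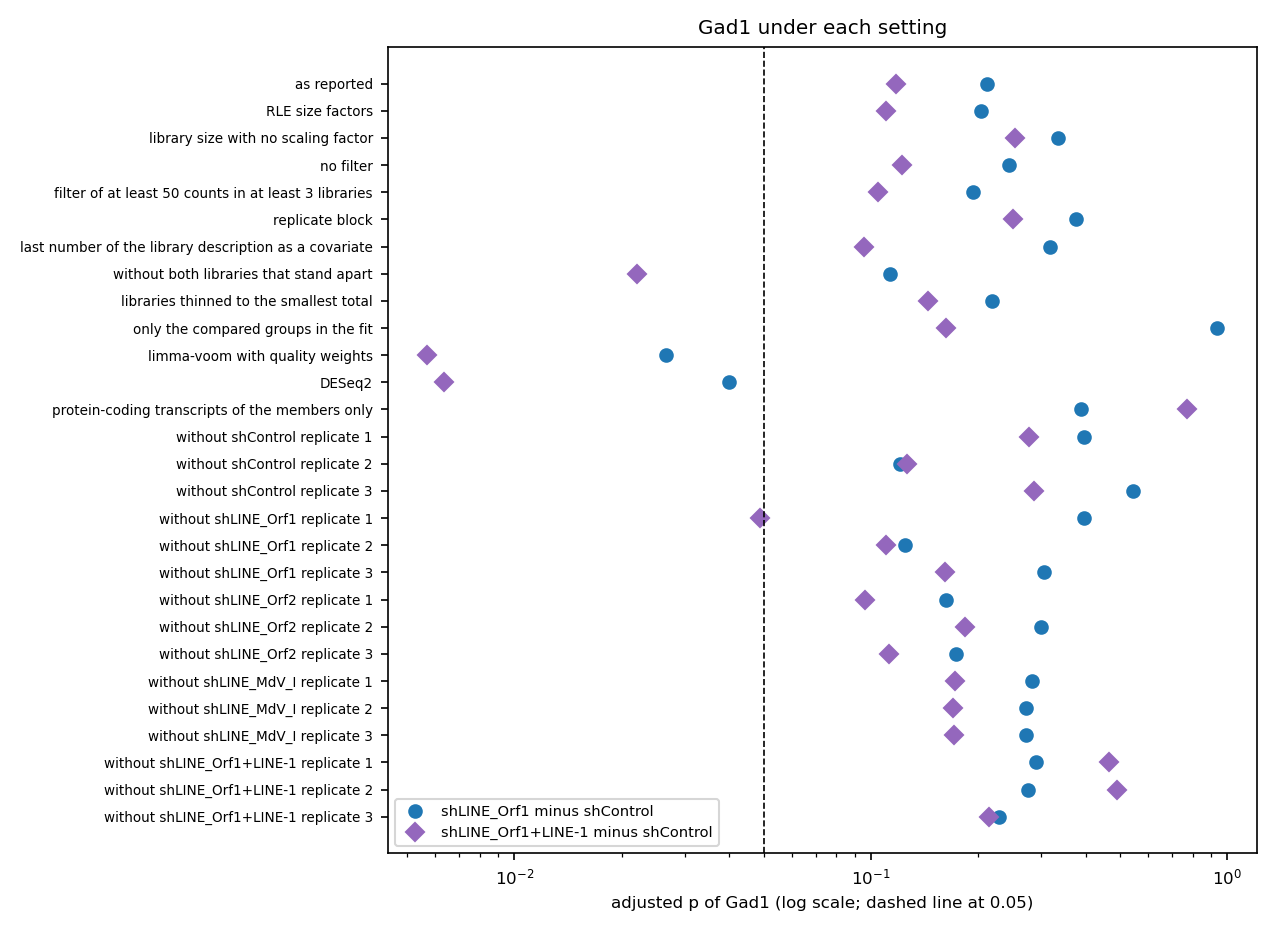
Benjamini-Hochberg adjusted p of Gad1 (horizontal axis, log scale) for shLINE_Orf1 (circles) and shLINE_Orf1+LINE-1 (diamonds) against shControl, as reported and under each of 27 alternatives (vertical axis), with the threshold of 0.05 as a dashed line. The values lie right of the line as reported (0.211 and 0.118) and left of it for both comparisons under DESeq2 and limma-voom.

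Gad1 is annotated with several transcripts, and its counts were spread over them. Gad1-201, the full-length coding transcript of 17 exons and 3355 bases, held 46.8% of the Gad1 counts. Gad1-206, a processed transcript of 16 exons with no annotated coding sequence, held 39.3%. It shares 2919 of its 2996 bases (97.4%) with Gad1-201, and the 77 bases of its first exon, inside the second intron of Gad1-201, are its own, while 436 bases of Gad1-201 are not in Gad1-206. The estimated split between these varied widely: the share of Gad1-201 ran from 10.9% to 81.6% of a library's Gad1 counts and that of Gad1-206 from 7.0% to 75.6%, with replicates of 1 group far apart. Summed, both were at 8.58 ± 0.793 CPM in shControl, 4.95 ± 0.929 in shLINE_Orf1, 7.92 ± 2.28 in shLINE_Orf2, 6.81 ± 0.594 in shLINE_MdV_I and 5.12 ± 0.629 in shLINE_Orf1+LINE-1 (SD, n = 3), an order of groups like that of the gene except that the lowest pair changes places.

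Another transcript, Gad1-205, holding 8.83% of the Gad1 counts, was chosen after its values were seen. Forms of Gad1 that include an exon with a stop codon are known from embryonic brain, where they encode truncated decarboxylases. Gad1-205 has 7 exons and 1705 bases, of which 825 are in no other Gad1 transcript. Those bases lie inside introns of Gad1-201, so reads of unspliced Gad1 RNA could be counted for Gad1-205, which was not tested. Its reading frame ends after 223 codons, in place of 593 in Gad1-201, and the first 212 amino acids of both are the same. The sequences below, from the GENCODE transcripts (GRCm38, plus strand), show where they part: the first 24 bases belong to the exon both share, and the rest to the next exon, at chr2:70584420-70584456 in Gad1-205 and chr2:70585834-70585870 in Gad1-201. Capitals mark the stop codon in frame.
Gad1-205: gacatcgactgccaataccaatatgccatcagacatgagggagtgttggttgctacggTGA
Gad1-201: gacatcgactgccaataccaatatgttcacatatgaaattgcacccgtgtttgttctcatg

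Gad1-205 was low in all 3 libraries with added LINE-1. Its estimated counts were 14.8, 15.7 and 18.9 there, against 36.2, 27.7 and 44.8 in shLINE_Orf1 and 35.5, 31.2 and 36.2 in shControl. The shLINE_Orf2 libraries had 49.0, 36.5 and 34.8 counts and the shLINE_MdV_I libraries 35.3, 32.6 and 32.8. The highest library with added LINE-1 (18.9) is thus below the lowest of the other 12 (27.7), and shLINE_Orf1 without it is not below shControl. The share of all transcripts that separate in this way was not computed. For genes, the share without overlap was 16.8% to 27.2% between the group with added LINE-1 and each other group in turn. On the CPM scale the means of Gad1-205 were 0.350 ± 0.0570 with added LINE-1, 0.865 ± 0.143 in shLINE_Orf1 and 0.724 ± 0.0400 in shControl (SD, n = 3). In a fit over all 48973 transcripts, an alternative added after the transcripts had been seen, the log2 fold change was -1.30 ± 0.31 against shLINE_Orf1 (edgeR adjusted p = 0.747) and -1.04 ± 0.31 against shControl (adjusted p = 0.631). Neither was called, and that fit called 0 transcripts (0.00%) against shLINE_Orf1 and 0.0123% against shControl, with 0.0449% over the 5 groups. The same fit gave Gad1-201 a log2 fold change of -1.34 ± 0.54 in shLINE_Orf1 minus shControl (adjusted p = 0.812; 0.0184% of transcripts called) and Gad1-206 one of -1.54 ± 0.64 in shLINE_Orf1+LINE-1 minus shControl (adjusted p = 0.877).

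**Figure D3:**
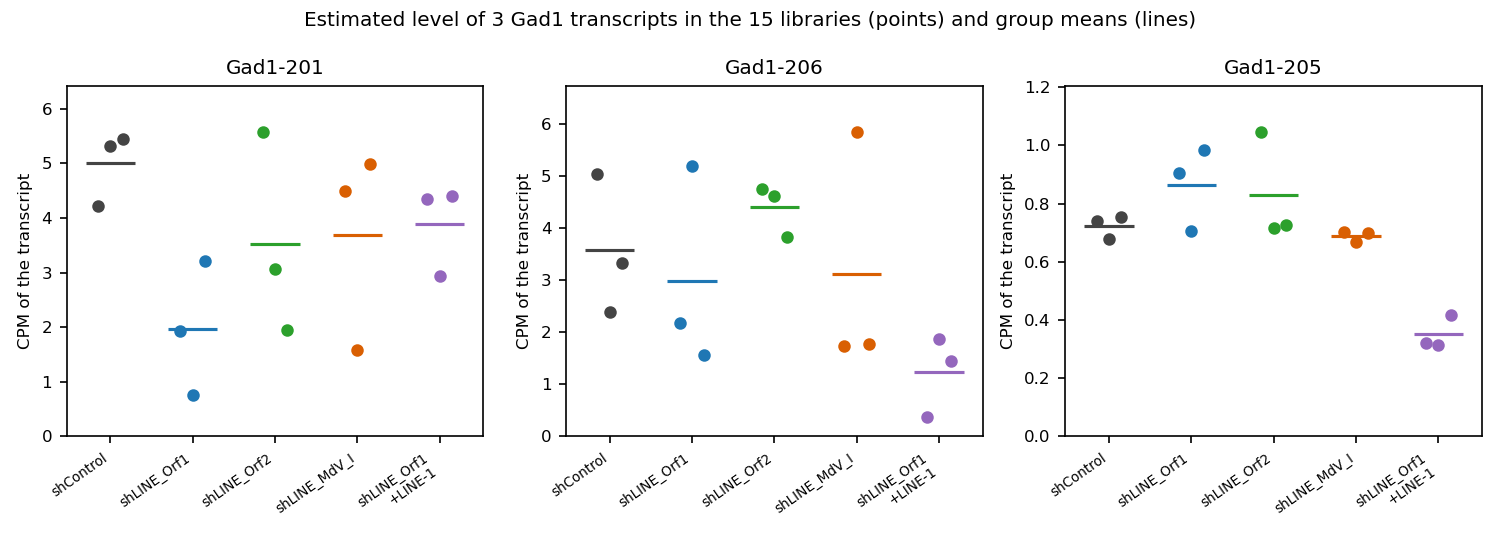
Estimated CPM (vertical axes, from 0) of Gad1-201, Gad1-206 and Gad1-205 in the 15 libraries (points) of the 5 groups, with group means (lines). Replicates scatter widely for Gad1-201 and Gad1-206, while Gad1-205 is at 0.416 CPM or less in the 3 libraries with added LINE-1 and at 0.667 CPM or more elsewhere.

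Gad2 encodes the decarboxylase that is tied to synaptic vesicles. It had 4 to 22 counts a library, which is too few to show moderate differences. It stood at 0.215, 0.130 and 0.231 CPM in shControl, 0.127, 0.125 and 0.154 in shLINE_Orf1, and 0.193, 0.362 and 0.395 in shLINE_Orf2. In shLINE_MdV_I it was at 0.440, 0.142 and 0.188 CPM and in shLINE_Orf1+LINE-1 at 0.256, 0.310 and 0.0861 CPM. All groups overlapped except shLINE_Orf2 and shLINE_Orf1, where the log2 fold change was 1.21 ± 0.56 (edgeR adjusted p = 0.434) and 14.2% of all genes did not overlap. Its intervals against shControl ran from -1.74 to 0.76 for shLINE_Orf1 and from -0.98 to 1.35 for shLINE_Orf1+LINE-1, so a change as large as that of Gad1 could not be told from none. Of its counts, 82.7% went to the coding Gad2-201 and 17.3% to the short noncoding Gad2-202.

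Sp8, a zinc finger factor of progenitors that supply olfactory bulb interneurons, was highest in the libraries with added LINE-1. It stood at 14.4, 13.8 and 11.6 CPM in shControl (672, 637 and 554 counts) and at 6.44, 15.5 and 12.5 CPM in shLINE_Orf1 (254, 617 and 569 counts). It was at 10.3, 13.1 and 12.6 CPM in shLINE_Orf2, at 12.3, 13.8 and 11.7 CPM in shLINE_MdV_I, and at 16.6, 18.3 and 15.5 CPM in shLINE_Orf1+LINE-1. All 3 of the last group lie above the other 12, though the gap is small: 15.52 CPM in its lowest library against 15.46 CPM in shLINE_Orf1 replicate 2. The lowest library of all, shLINE_Orf1 replicate 1, is the one that stands apart, and the next lowest held 10.35 CPM.

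Group means of Sp8 were 13.3 ± 1.46 CPM in shControl, 11.5 ± 4.599 in shLINE_Orf1, 12.03 ± 1.48 in shLINE_Orf2, 12.6 ± 1.11 in shLINE_MdV_I and 16.8 ± 1.41 in shLINE_Orf1+LINE-1 (SD, n = 3). Against shLINE_Orf1, the added LINE-1 gave a log2 fold change of 0.55 ± 0.22 (95% interval 0.08 to 1.03, edgeR adjusted p = 0.422), and 17.4% of all genes did not overlap there. It was 0.27 without shLINE_Orf1 replicate 1 (edgeR adjusted p = 0.9995). Against shControl it was 0.34 ± 0.22 (-0.13 to 0.81, edgeR adjusted p = 0.742), against shLINE_Orf2 0.48 ± 0.22 (adjusted p = 0.543) and against shLINE_MdV_I 0.41 ± 0.22 (adjusted p = 0.680). The groups did not overlap for Sp8 in any of these, but 26.5% and 27.2% of all genes did not overlap with shLINE_Orf2 and shLINE_MdV_I either. In shLINE_Orf1 minus shControl, Sp8 was at -0.21 ± 0.22 (edgeR adjusted p = 0.692), and at 0.07 without shLINE_Orf1 replicate 1. The other hairpins alone differed little from shControl, by -0.14 ± 0.22 for shLINE_Orf2 (-0.62 to 0.33) and -0.07 ± 0.22 for shLINE_MdV_I (-0.55 to 0.40). The authors' deposited table of a mixed model, named for young LINE-1 and with no scale given, lists Sp8 with an estimate of 0.377, an error of 0.174 and p = 0.0493. In the authors' deposited table the adjusted p is 1 for all 17921 genes, and 2.66% of them have p under 0.05. The authors' deposited table gives Gad1 an estimate of 0.134 and p = 0.810. It holds 7 of the 9 genes, without Dlx5 and Slc32a1.

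**Figure D4:**
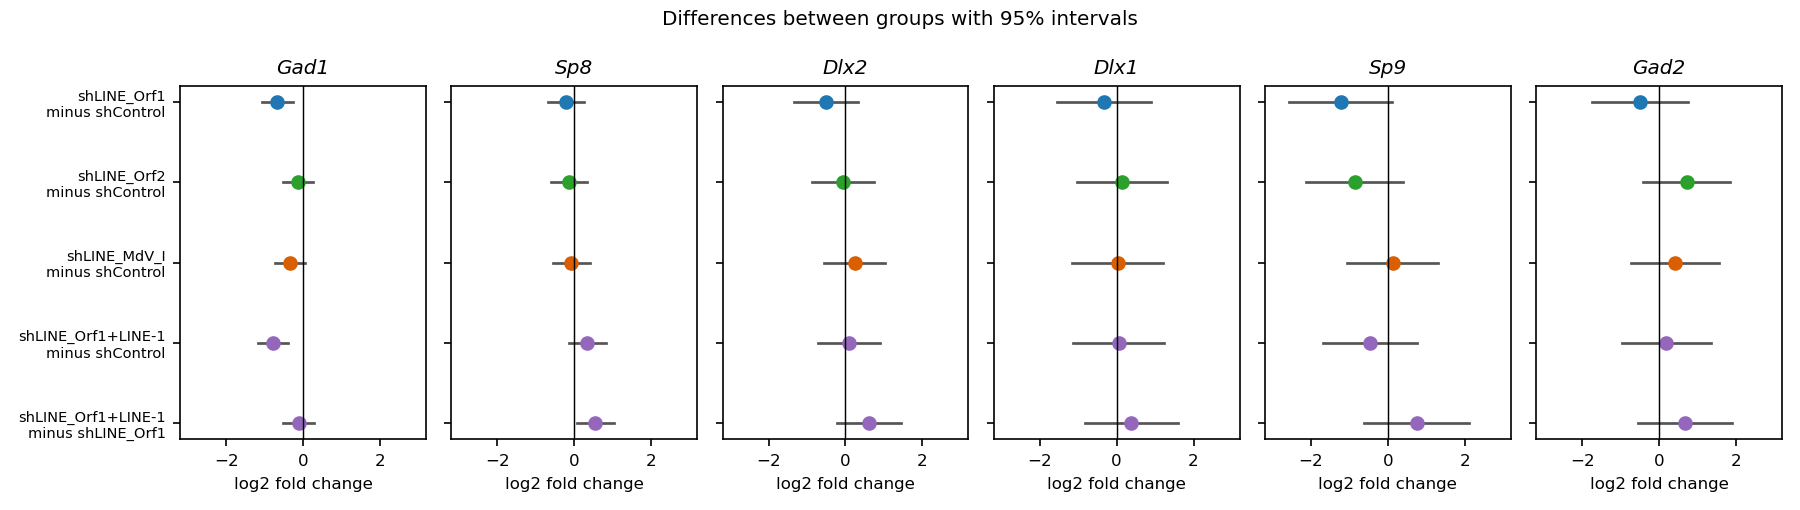
Log2 fold changes (points) with 95% intervals (lines) of the 6 genes tested, in the 4 comparisons with shControl and in shLINE_Orf1+LINE-1 minus shLINE_Orf1. The intervals of Gad1 lie below 0 in the 2 comparisons of the Orf1 hairpin with shControl, that of Sp8 lies above 0 in the last comparison, and intervals of the low genes Dlx1, Sp9 and Gad2 span more than 2 log2 units.

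Sp9, a close relative of Sp8 that acts with it in olfactory bulb and striatal lineages, had 2 to 21 counts a library. It stood at 0.150, 0.324 and 0.441 CPM in shControl, 0.0507, 0.276 and 0.0658 in shLINE_Orf1, and 0.236, 0.201 and 0.0623 in shLINE_Orf2. In shLINE_MdV_I it was at 0.300, 0.284 and 0.419 CPM and in shLINE_Orf1+LINE-1 at 0.214, 0.271 and 0.172 CPM. The shLINE_MdV_I libraries lay above all libraries of shLINE_Orf1, shLINE_Orf2 and shLINE_Orf1+LINE-1. The gap to the last group rests on scaling, since shLINE_MdV_I replicate 2 and shLINE_Orf1+LINE-1 replicate 2 both had 14 counts. The log2 fold change of shLINE_MdV_I minus shLINE_Orf1 was 1.35 ± 0.62 (edgeR adjusted p = 0.300), and that of shLINE_Orf1 minus shControl -1.22 ± 0.63 (-2.56 to 0.11, adjusted p = 0.501), which limma-voom called (-2.06, adjusted p = 0.0450). Of all genes, 19.2% did not overlap between shLINE_MdV_I and shLINE_Orf1. The share was 17.5% between shLINE_MdV_I and shLINE_Orf2, and 27.2% between shLINE_MdV_I and shLINE_Orf1+LINE-1. The order of Sp9 over the groups is not that of Sp8, since Sp9 was not highest with added LINE-1.

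Dlx2 and Dlx1 are the Dlx genes that act first in ventral progenitors. Dlx2 had 14 to 57 counts a library and stood at 0.773, 0.691 and 0.946 CPM in shControl, 0.355, 0.551 and 0.768 in shLINE_Orf1 and 0.773, 0.986 and 0.540 in shLINE_Orf2. It was at 1.14, 0.751 and 0.963 CPM in shLINE_MdV_I and at 0.427, 0.987 and 1.16 CPM in shLINE_Orf1+LINE-1. All 10 pairs of groups overlapped. The log2 fold change farthest from 0 was that of shLINE_MdV_I minus shLINE_Orf1, at 0.76 ± 0.39 (edgeR adjusted p = 0.329), and against shControl that of shLINE_Orf1, at -0.52 ± 0.39 (-1.35 to 0.31).

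Dlx1 had 6 to 33 counts a library. It stood at 0.687, 0.324 and 0.273 CPM in shControl, 0.152, 0.451 and 0.417 in shLINE_Orf1 and 0.708, 0.543 and 0.166 in shLINE_Orf2. It was at 0.280, 0.629 and 0.398 CPM in shLINE_MdV_I and at 0.427, 0.290 and 0.624 CPM in shLINE_Orf1+LINE-1, so replicates differed more than groups, and all pairs of groups overlapped. The annotation holds more than coding RNA here: 55.2% of the Dlx1 counts went to the retained-intron transcript Dlx1-203, 10.54% to another, Dlx1-206, and 23.5% to the coding Dlx1-201, which was at 0 in libraries of all 5 groups, 9 of the 15 in all. Dlx2 and Sp8 differ in this, with 99.8% and 99.4% of counts on their main coding transcripts, as does Sp9, all of whose counts went to Sp9-201. In the library that stands apart, shLINE_Orf1 replicate 1, 4 of the 6 tested genes had their lowest value of all 15 libraries: Sp8, Sp9, Dlx1 and Dlx2. Sp9, Dlx1 and Dlx2 had 2, 6 and 14 counts there. The share of all genes lowest in this library was not computed, so the 4 cannot be set apart from other genes. Without shLINE_Orf1 replicate 1, the log2 fold changes of shLINE_Orf1 minus shControl were 0.07 for Sp8, -0.86 for Sp9, 0.01 for Dlx1 and -0.29 for Dlx2, none of them called by edgeR.

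Dlx5 and Dlx6, which act after Dlx1 and Dlx2 as neurons leave the cycle, were near or at the floor. Dlx6 had 45 counts in all and no library above 7, with 3, 1 and 2 in shControl, 1, 5 and 1 in shLINE_Orf1, 1, 3 and 5 in shLINE_Orf2, 7, 2 and 2 in shLINE_MdV_I and 0, 5 and 7 in shLINE_Orf1+LINE-1. Dlx5 had 9 counts in all, 2 in shControl replicate 1, 4 in shLINE_Orf1 replicate 3 and 3 in shLINE_Orf2 replicate 3, and 0 in the other 12 libraries. With no filter on low counts, the edgeR F test over the 5 groups gave adjusted p-values of 0.782 for Dlx5 and 0.967 for Dlx6, and differences between groups were not detectable at this depth.

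Of 33 other transcription factors of GABA lineages, all in the table, 27 passed the filter and several were well above the Dlx genes. Per length, Etv1 was at 67.4 TPM, Sox6 at 25.99, Meis2 at 24.5 and Gsx1, a factor upstream of Dlx genes, at 7.30 TPM. Factors of the medial ganglionic eminence were at or near 0: Nkx2-1 at 0.00661 and Lhx6 at 0.0145 TPM, with Lhx8 at 0 in every library, as was Isl1 of striatal neurons. None of the 27 was called in the 4 comparisons with shControl. Their log2 fold changes were above 0 for 8, 15, 14 and 12 of 27 in shLINE_Orf1, shLINE_Orf2, shLINE_MdV_I and shLINE_Orf1+LINE-1, with medians of -0.22, 0.09, 0.00 and -0.11, beside 48.6%, 47.7%, 47.6% and 46.3% of all genes with medians of -0.01, -0.01, -0.01 and -0.02. For the 6 tested genes named at the start, 0, 2, 4 and 4 of 6 were above 0. The 0 of 6 in shLINE_Orf1 became 2 of 6, Sp8 and Dlx1, without shLINE_Orf1 replicate 1.

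Sox6, a factor of interneuron maturation that is also used in the oligodendrocyte lineage, and Dlx3, a Dlx gene best known from skin, teeth and placenta, were called over the 5 groups (edgeR F test, adjusted p = 0.0262 and 0.0355). Dlx3 stood at 0.128, 0.0968 and 0.0215 CPM with added LINE-1, near the floor, against 0.760, 0.752 and 0.373 CPM in shLINE_Orf1 and 0.580, 1.02 and 0.631 CPM in shControl. It was at 1.996, 0.805 and 0.665 CPM in shLINE_Orf2 and at 0.4995, 0.731 and 0.858 CPM in shLINE_MdV_I. The 3 libraries with added LINE-1 thus lie below the other 12. Between that group and each other group in turn, 16.8% to 27.2% of all genes did not overlap. Dlx3 was lower with added LINE-1 than in shLINE_Orf2 (log2 fold change -3.76 ± 0.58, edgeR adjusted p = 0.0192; 0.238% of genes called) and shLINE_MdV_I (-3.03 ± 0.59, adjusted p = 0.0270; 0.680% called). The difference from shLINE_Orf1 was -2.88 ± 0.60 (adjusted p = 0.394) and that from shControl -3.13 ± 0.59 (adjusted p = 0.0549), so neither was called. The call over the 5 groups held under 12 of 23 edgeR alternatives. It was lost with thinned libraries, with a replicate block, without any 1 library of shLINE_MdV_I or shLINE_Orf1+LINE-1, without shControl replicate 1 or 3, and without shLINE_Orf2 replicate 2 (adjusted p up to 0.141). The 2 pairwise calls were lost without any 1 library of shLINE_Orf1+LINE-1. That against shLINE_Orf2 was also lost without shLINE_Orf2 replicate 1 or 2 (adjusted p up to 0.107), and that against shLINE_MdV_I without any 1 of its libraries (up to 0.139) and with the last number of the library description as a covariate (0.104).

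Sox6 was higher in shLINE_MdV_I (64.3 ± 4.81 CPM) than in shLINE_Orf1 (44.5 ± 5.01 CPM; SD, n = 3), with a log2 fold change of 0.53 ± 0.10 (edgeR adjusted p = 0.0290; 0.687% of genes called). This held under 15 of 24 edgeR alternatives. It was lost without scaling factors, with a replicate block, and without any 1 library of shLINE_MdV_I, shLINE_Orf1 replicate 1, shLINE_Orf2 replicate 2 or shLINE_Orf1+LINE-1 replicate 2 or 3 (adjusted p up to 0.173). The Sox6 call over the 5 groups held under 14 of 24, and was lost without scaling factors, with a replicate block, and without any 1 library of shLINE_Orf2 or shLINE_Orf1+LINE-1, or shLINE_MdV_I replicate 1 or 2 (adjusted p up to 0.0833). Its other values were 54.1 ± 5.19 CPM in shControl, 67.8 ± 1.14 in shLINE_Orf2 and 50.2 ± 1.40 in shLINE_Orf1+LINE-1. Other genes moved in the same comparison of hairpins: Sox10 and Pdgfra, which mark oligodendrocyte precursors, were higher (log2 fold changes 1.02 and 1.17) and the astrocyte genes Apoe and Sparcl1 lower (-1.17 and -0.64). All 4 were called by edgeR, and all 4 calls were lost without shLINE_MdV_I replicate 1 or 2, those of Sox10 and Pdgfra also without shLINE_Orf1 replicate 1. The Sox10 call held under 8 of 24 edgeR alternatives and that of Pdgfra under 12 of 24, and both were lost with a replicate block (adjusted p = 0.0695 and 0.101). Without scaling factors the calls of Sox10, Pdgfra and Sparcl1 were lost. Apoe and Sparcl1 were also called lower in shLINE_MdV_I than in shControl (0.594% of genes called), under 22 and 24 of 24 edgeR alternatives. Sox10 and Pdgfra were not called there. Compared with shLINE_Orf1+LINE-1, shLINE_MdV_I was called higher for Sox10 and lower for Sparcl1 (0.680% of genes called), under 18 and 20 of 24 edgeR alternatives. Summed over the 10 oligodendrocyte lineage genes, levels were 1229 to 2853 TPM in shLINE_Orf1 and 2302 to 2620 TPM in shLINE_MdV_I, which overlap. The 8 astrocyte genes summed to 955 to 1291 TPM in shLINE_Orf1 and 665 to 782 TPM in shLINE_MdV_I, without overlap. The part of these cells in the Sox6 difference was not tested.

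Of 17 other genes of GABA synthesis, transport and breakdown, 16 passed the filter. Per length, the plasma membrane GABA transporter gene Slc6a11, whose product takes GABA up, was at 98.9 TPM, and the enzymes of breakdown Abat and Aldh5a1 at 16.9 and 12.5 TPM. Aldh1a1, an aldehyde dehydrogenase that can take part in making GABA from putrescine, was called in shLINE_MdV_I minus shControl. Its mean fell from 5.79 ± 0.640 to 1.72 ± 0.361 CPM (SD, n = 3; log2 difference -1.75 ± 0.33, edgeR adjusted p = 0.0232). This call was lost without shControl replicate 1 or 2, without any 1 library of shLINE_MdV_I and with a replicate block (adjusted p up to 0.176). Abat stood at 33.1 ± 5.28 CPM in shControl, 49.0 ± 8.54 in shLINE_Orf1 and 50.9 ± 0.730 in shLINE_Orf1+LINE-1 (log2 fold changes 0.56 ± 0.145 and 0.62 ± 0.14, edgeR adjusted p = 0.164 and 0.112). The 2 groups with the Orf1 hairpin did not overlap shControl for Abat. Of all genes, 9.28% did not overlap for shLINE_Orf1 and 16.8% for shLINE_Orf1+LINE-1, and both comparisons use the same shControl libraries. The signs were opposite to those of Gad1, but the main edgeR fit called neither gene, and a link between them was not tested.

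None of 24 genes of GABA receptors and the inhibitory postsynapse was called in any comparison, and 19 passed the filter. The receptor subunit gene Gabrg1 was at 51.9, Gabra2 at 17.4 and Gabra4 at 10.2 TPM, and the scaffold gene Gphn at 34.6 TPM. Gabra2 came nearest, at 49.7 ± 10.7 CPM in shControl, 27.2 ± 3.11 in shLINE_Orf1 and 26.6 ± 4.62 in shLINE_Orf1+LINE-1, with log2 fold changes of -0.87 ± 0.18 and -0.90 ± 0.18 (edgeR adjusted p = 0.0767 and 0.0814). Gabra4 was lower in shLINE_MdV_I, at 14.2 ± 0.601 against 21.9 ± 5.96 CPM in shControl, and was not called (adjusted p = 0.194).

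Markers of GABAergic neuron subtypes were low. Of 26, 25 were in the table and 17 passed the filter, and none was above 7.08 TPM (Robo2). Those of mature classes differed in level: Sst was at 0.0365, Vip at 0.00461, Th at 0.00673 and Lamp5 at 0.0336 TPM, while Ppp1r1b was at 2.61, Calb2 at 2.09, Calb1 at 1.55, Npy at 1.08, Reln at 0.941 and Pvalb at 0.923 TPM. Ackr3, a chemokine receptor of migrating interneurons that other cells also use, was called over the 5 groups (edgeR adjusted p = 0.0415) and in no pair. It was at 1.80 ± 0.483 CPM in shControl, 1.9997 ± 0.243 in shLINE_Orf1, 3.68 ± 0.267 in shLINE_Orf2, 3.22 ± 0.427 in shLINE_MdV_I and 2.26 ± 0.0548 in shLINE_Orf1+LINE-1. That call held under 11 of 24 edgeR alternatives, and leaving out any 1 library of shLINE_Orf2, shLINE_MdV_I or shLINE_Orf1+LINE-1 ended it, as did leaving out shControl replicate 2 or shLINE_Orf1 replicate 3, thinned libraries and a replicate block (adjusted p up to 0.116). Calb2, next in the list by p, had an adjusted p of 0.197.

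Genes of the glutamatergic lineage, the counterpart in dorsal progenitors, were also mostly low. Of 15, 8 passed the filter. The dorsal progenitor factors Lhx2, Emx2 and Pax6 were at 49.4, 15.2 and 11.7 TPM, while Neurog2 was at 0.0119 TPM, the vesicular glutamate transporter gene Slc17a7 at 0.164 TPM and Slc17a6 at 0 in every library. The vesicular transporter genes of both transmitters were thus at or near 0. Neurod1 was called over the 5 groups (edgeR adjusted p = 0.0470), which held under 8 of 23 edgeR alternatives. That call was lost without scaling factors, with a replicate block or the covariate, and without any 1 library other than shControl replicates 1 and 3 and shLINE_Orf1 replicate 1 (adjusted p up to 0.151). Neurod1 was at 1.05 ± 0.126 CPM in shLINE_MdV_I against 0.222 ± 0.0609 CPM in shLINE_Orf1 (log2 fold change 2.22 ± 0.47, adjusted p = 0.0435). The call of the pair was lost without scaling factors, without both libraries that stand apart (0.0874), and on leaving out any 1 library other than those of shControl and shLINE_Orf2 replicate 2 (adjusted p up to 0.161). Slc17a7 was not called (adjusted p = 0.122).

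**Figure D5:**
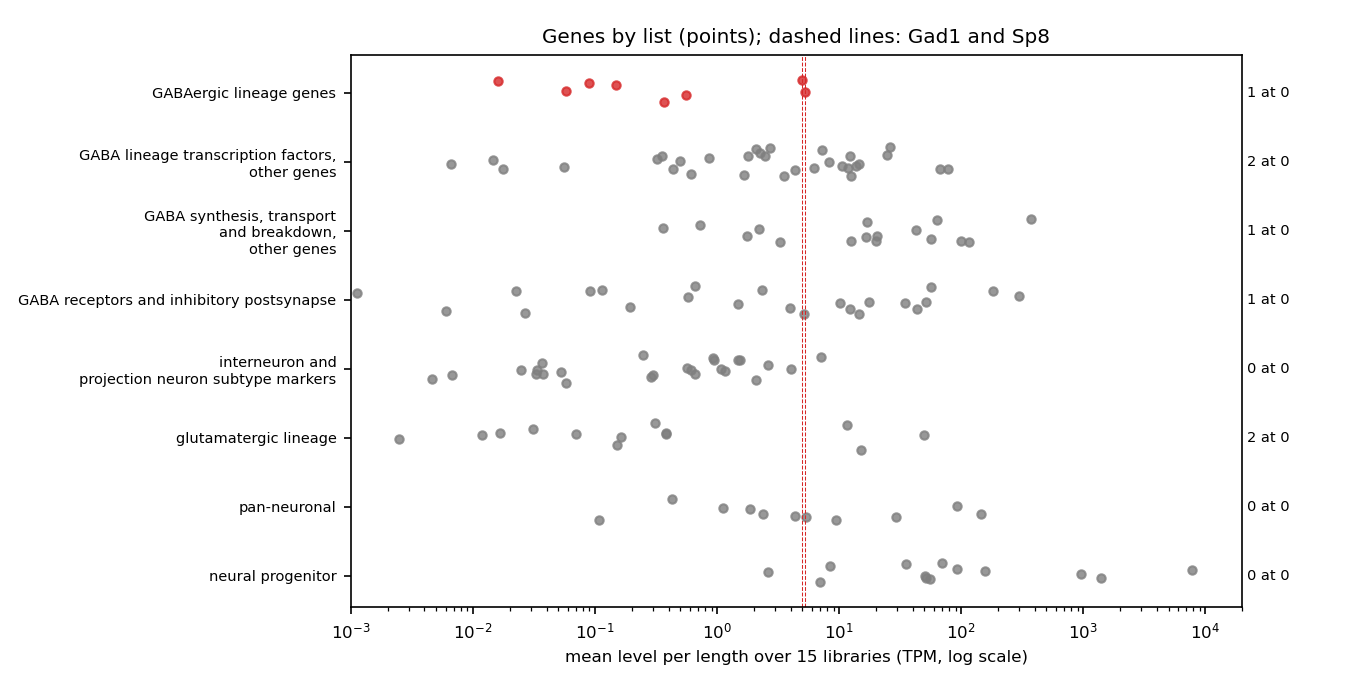
Mean level per length over the 15 libraries (TPM, horizontal log axis) of every gene of 8 lists (points), with the GABAergic lineage genes in red, Gad1 and Sp8 as dashed lines and, at the right, the number of genes at 0 in every library. Of the red genes only Gad1 and Sp8 exceed 1 TPM, while progenitor genes reach 7847 TPM.

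The 11 pan-neuronal genes summed to 192 to 375 TPM in shControl, 186 to 305 in shLINE_Orf1, 263 to 306 in shLINE_Orf2, 319 to 343 in shLINE_MdV_I and 282 to 304 in shLINE_Orf1+LINE-1. Of these genes Snap25 was called, higher in shLINE_MdV_I than in shControl (log2 fold change 0.83, edgeR adjusted p = 0.0182; lost without any 1 library of either group), and Tubb3 was not called (F test, adjusted p = 0.120). The 8 genes of vessel and mesenchymal cells summed to 25.97 to 39.5 TPM in shControl and 33.5 to 37.9 TPM elsewhere, and the 8 genes of microglia and blood, with Aif1 and Hbb-bs at 0, to 1.14 to 1.60 TPM in shControl and 0.532 to 1.27 TPM elsewhere. Progenitor genes summed to 10890 to 13610 TPM in shLINE_Orf1 and to 9790 to 11190 TPM in the other groups, and none of the 13 was called. Most of this sum came from Fabp7, so it does not describe the list as a set. In shLINE_Orf1 minus shControl, 6 of the 13 had a log2 fold change above 0 and 7 below. The median was -0.03, and 48.6% of all genes were above 0. The part of these genes in the Gad1 and Sp8 values was not tested.

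The genes whose log2 CPM followed Gad1 most closely over the 15 libraries were Kdm7a (Pearson r = 0.897), Rsbn1 (0.887) and Phf3 (0.864). Those closest to Sp8 were Mcl1 (0.945), Garem1 (0.922) and Bag3 (0.920). These are descriptions over points that share libraries, depth scaling and groups, and for Sp8 they include the low value of shLINE_Orf1 replicate 1. No other tested GABAergic lineage gene was among the 3 closest to either, and Dlx5, Dlx6 and Slc32a1 could not appear, since only tested genes were compared. That absence says little, because Gad2, Dlx1, Dlx2 and Sp9 had at most 57 counts a library.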

How the data were processed

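Expected counts (estimated reads per transcript) were deposited without normalization; cutadapt, RSEM and mm10 are named per the submitters' processing notes, and the sources used here give no versions, annotation or settings. The authors also deposited a mixed model table with an estimate, a t score and a p-value per gene, per the file headers; its tool and samples are not given. Of 111462 transcripts, 110115 matched GENCODE M21 (GRCm38) and were summed to 34910 genes and rounded; the other 1347 held at most 0.650% of counts in any library and were dropped, as was 1 blank row. Genes passing filterByExpr (minimum count 10) were fitted with edgeR 4.0.16 (R 4.3.3): TMM scaling, 1 robust quasi-likelihood model of 5 groups, Benjamini-Hochberg adjustment over 15141 genes, calls at an adjusted p under 0.05. CPM use TMM-scaled sizes, and log2 CPM a prior count of 2. TPM were computed from counts and annotated exonic length. Alternatives used limma 3.58.1 and DESeq2 1.42.0; tables and figures used Python 3.11.15 with pandas 2.3.3 and matplotlib 3.10.9. Scripts were tested on simulated data.

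The 9 genes, the lists, tests and alternatives were chosen with earlier results of these data known. All 9 genes are named whatever their result, with transcripts holding at least 10% of a tested gene's counts. Each list's called genes are named, or else the 2 with the smallest p over the 5 groups, and for genes of at least 1 CPM the 3 most correlated genes. Genes of other cell types named for their level alone were chosen after their values were seen. Intervals and floors cover counting error or the spread between these libraries only.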

Additional observations from a re-analysis of the deposited data

How the results depend on the processing

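The main test called 0 of the tested genes in each comparison, and the count differed only where Gad1, Sp8 or Sp9 was called. Over the 5 groups it was 1 (Gad1) without both libraries that stand apart, with limma-voom and with DESeq2, and 0 with a library left out. In shLINE_Orf1 against shControl it was 2 (Gad1 and Sp9) with limma-voom and 1 with DESeq2. In shLINE_Orf1+LINE-1 against shControl it was 1 (Gad1) without both libraries that stand apart, with limma-voom and with DESeq2, and 0 to 1 with a library left out. Over the 5 pairs of groups other than the comparisons with shControl and with shLINE_Orf1+LINE-1 minus shLINE_Orf1 it was 2 without both libraries that stand apart (Gad1 and Sp8), 2 when each fit held just its 2 groups (Sp8), 5 with limma-voom (Sp9, Gad1 and Sp8) and 1 with DESeq2 (Gad1). The cause was not tested.

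No pairing of the samples by replicate number was seen: the deviations of 30 same-numbered pairs correlated at -0.271 to 0.180, with 3 over 0.1, against -0.229 to 0.303 for other pairs. Such correlations cannot show whether same-numbered libraries shared a culture, which the labels do not state. With the number as a replicate block, 0 of these genes were called, and the adjusted p of Gad1 was 0.258 over the 5 groups, 0.375 in shLINE_Orf1 and 0.251 in shLINE_Orf1+LINE-1 against shControl.

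Of 30 log2 fold changes, 16 turned direction under some alternative, and no turned value was called; the cause was not tested. With limma-voom these were, against shControl, Dlx1 (0.366) and Sp8 (0.0527) in shLINE_Orf1, Sp8 (0.0145) in shLINE_Orf2, Gad2 (-0.0419), Dlx2 (-0.00235), Sp8 (0.0860) and Sp9 (-0.237) in shLINE_MdV_I, Gad2 (-0.124) and Dlx2 (-0.133) in shLINE_Orf1+LINE-1, and Dlx1 (-0.00314) in shLINE_Orf1+LINE-1 minus shLINE_Orf1. Without both libraries that stand apart they were Sp8 (0.0953) in shLINE_Orf1, Dlx1 (-0.0218) in shLINE_Orf2, Dlx1 (-0.135) in shLINE_MdV_I, and Gad2 (-0.0214) and Dlx1 (-0.0977) in shLINE_Orf1+LINE-1. With coding transcripts only they were Dlx1 in shLINE_Orf2 (-0.00743), shLINE_MdV_I (-1.67) and shLINE_Orf1+LINE-1 (-0.749), and Gad1 (0.511) and Dlx1 (-0.337) in shLINE_Orf1+LINE-1 minus shLINE_Orf1. Thinned libraries turned Dlx2 in shLINE_Orf2 (0.00416) and Dlx1 in shLINE_MdV_I (-0.0272), and the last number of the library description as a covariate turned Sp8 in shLINE_MdV_I (0.288). With a library left out, Dlx1 ran from -0.556 to 0.194 in shLINE_Orf1, -0.258 to 0.658 in shLINE_Orf2, -0.318 to 0.550 in shLINE_MdV_I and -0.247 to 0.583 in shLINE_Orf1+LINE-1, and Sp8 from -0.474 to 0.0659 in shLINE_Orf1 and -0.145 to 0.000423 in shLINE_MdV_I. Gad1 ran from -0.340 to 0.0381 and Dlx2 from -0.286 to 0.130 in shLINE_Orf2, Gad2 from -0.202 to 0.721 and Sp9 from -0.186 to 0.505 in shLINE_MdV_I, and Gad2 from -0.155 to 0.565 and Dlx2 from -0.167 to 0.430 in shLINE_Orf1+LINE-1. Depth limits Gad2, Dlx1, Dlx2 and Sp9, with at most 57 counts a library, and Dlx5 and Dlx6, with at most 7. With no filter these were tested and not called.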
